A study of Mus musculus with 4 samples.

Results

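Granzymes A, B, C, D, E, F and K and perforin, the proteins with which killer lymphocytes destroy their targets, were followed through the lymphocytes of mouse liver tumours. These were 8 genes (Gzma, Gzmb, Gzmc, Gzmd, Gzme, Gzmf, Gzmk and Prf1) of the 32285 in the count tables. They were chosen by symbol and read as UMI counts (counts of distinct captured molecules) in CD8 T, CD4 T, regulatory T and NK cells. Liver metastases of MC38, a mouse colon carcinoma line, had grown in C57BL/6J mice, and cells selected on beads for the leukocyte protein CD45 were profiled with droplet-based 3′ single-cell RNA sequencing. The 4 libraries were HFD_shYap (high-fat diet, tumour genotype shYap-MC38), HFD_WT (high-fat diet, WT-MC38), LFD_shYap (low-fat diet, shYap-MC38) and LFD_WT (low-fat diet, WT-MC38). The titles call the mice WT in every group, so all lymphocytes were wild type, and the Yap knockdown was in the tumour line alone. There was 1 library per combination, and the labels do not say how many mice gave each. The design asks what the diet and the tumour knockdown do to the infiltrating immune cells.

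Perforin opens pores in the target cell membrane, through which granzymes, serine proteases stored in cytotoxic granules, reach the cytosol. Granzyme B cuts after aspartate and activates caspases, whereas granzymes A and K are trypsin-like enzymes that cut after basic residues. Gzmc, Gzmd, Gzme and Gzmf are mouse genes beside Gzmb that have no one-to-one human counterpart, and several of them are best known from uterine NK cells and from strongly activated killer cells.

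The chromosome 14 cluster holds 5 of the 8 genes, and its neighbours are read apart below, so the sequences just upstream of these 5 are shown first. In GRCm38 the cluster ran from Gzme (56117626 to 56120625) through Gzmd (56129556 to 56132608), Gzmg, Gzmn, Gzmf (56205263 to 56211417) and Gzmc (56231441 to 56234656) to Gzmb (56258838 to 56262260), all on the minus strand. The other members lie elsewhere, Gzma (113093825 to 113100981) and Gzmk (113171608 to 113225908) on the minus strand of chromosome 13 and Prf1 (61297833 to 61304680) on the plus strand of chromosome 10. Each window is the 250 bases before the RefSeq transcript start on the minus strand of GRCm38.p6: chr14:56262335-56262584 for Gzmb, chr14:56234658-56234907 for Gzmc, chr14:56132594-56132843 for Gzmd, chr14:56120626-56120875 for Gzme and chr14:56211408-56211657 for Gzmf. Capitals mark every match, on either strand, to 4 short motifs: TGACGTCA (the CREB/ATF palindrome), TGANTCA (AP-1), TGTGGT (RUNX) and TCACAC (a T-box core). In Gzmd and Gzme they also mark the stretch aligned with the TGACGTCA of Gzmc.
Gzmb: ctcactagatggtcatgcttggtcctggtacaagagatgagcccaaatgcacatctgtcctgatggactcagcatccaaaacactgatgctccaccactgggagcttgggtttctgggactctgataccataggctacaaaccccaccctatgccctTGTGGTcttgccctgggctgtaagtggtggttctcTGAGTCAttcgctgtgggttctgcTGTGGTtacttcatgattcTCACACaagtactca
Gzmc: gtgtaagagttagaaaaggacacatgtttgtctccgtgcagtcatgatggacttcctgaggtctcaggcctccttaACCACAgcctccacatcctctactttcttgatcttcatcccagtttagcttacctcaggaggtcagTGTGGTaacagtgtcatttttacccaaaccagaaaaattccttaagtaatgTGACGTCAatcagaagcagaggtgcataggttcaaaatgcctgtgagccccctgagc
Gzmd: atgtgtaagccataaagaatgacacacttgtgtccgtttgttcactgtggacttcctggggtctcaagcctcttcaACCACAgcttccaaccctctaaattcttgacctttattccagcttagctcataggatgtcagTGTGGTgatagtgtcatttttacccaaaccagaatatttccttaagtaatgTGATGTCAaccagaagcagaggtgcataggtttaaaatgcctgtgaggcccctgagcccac
Gzme: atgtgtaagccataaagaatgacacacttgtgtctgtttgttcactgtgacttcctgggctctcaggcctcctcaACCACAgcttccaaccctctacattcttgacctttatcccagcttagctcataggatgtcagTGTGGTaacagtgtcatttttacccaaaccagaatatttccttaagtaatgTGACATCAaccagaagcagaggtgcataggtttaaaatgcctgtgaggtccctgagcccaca
Gzmf: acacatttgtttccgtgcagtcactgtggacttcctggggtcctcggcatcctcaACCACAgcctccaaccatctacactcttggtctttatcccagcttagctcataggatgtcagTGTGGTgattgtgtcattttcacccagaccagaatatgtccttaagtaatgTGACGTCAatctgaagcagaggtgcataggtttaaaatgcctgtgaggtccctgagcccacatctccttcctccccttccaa
The Gzmc and Gzmf windows hold the whole TGACGTCA, which starts 57 and 82 bases before their transcript starts. At the aligned place, counting from 1 at the first base of TGACGTCA, Gzmd carries the substitution C4T and Gzme carries G5A. Gzmb has no TGACGTCA in this window and is the single member with TGANTCA, 58 bases before its start. Among 32851 RefSeq promoter windows of the same length, TGACGTCA occurred in 1.55%, TGANTCA in 6.75%, TGTGGT in 14% and TCACAC in 12.3%. TGTGGT occurred 2 times in each of the Gzmb to Gzmf windows. Upstream identity was 95.2% between Gzmd and Gzme, 77.2% between Gzmc and Gzmf and 49.2% to 54.0% between Gzmb and the other 4. These matches are descriptions of letters and not of bound factors. Over the last 500 bases of the transcripts, where 3′ reads fall, Gzmd and Gzme shared 7 of 411 stretches of 90 bases, so a small part of their reads could not be assigned. No other member shared one.

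After filters and doublet removal 38243 of 50062 barcodes were kept, and 4075 of these fell in T and NK clusters that had been built without any granzyme gene or Prf1. Classes were then gated by marker UMIs. CD8 T cells had a CD3 UMI and a Cd8a or Cd8b1 UMI with no Cd4 or Foxp3, and NK cells had Ncr1 or Klrb1c without CD3, Cd4, Cd8a, Cd8b1 or Foxp3. This gave 516, 740, 422 and 366 CD8 T cells in HFD_shYap, HFD_WT, LFD_shYap and LFD_WT, and 58, 63, 113 and 247 NK cells in the same order. All 8 NK markers were detected in the NK cells, where they summed to 2414, 2139, 2021 and 1602 CPM (UMIs of a gene per 1000000 UMIs of the summed cells) in HFD_shYap, HFD_WT, LFD_shYap and LFD_WT, against 296, 332, 214 and 333 CPM in CD8 T cells. The gate itself required a UMI of Ncr1 or Klrb1c, which are among these 8 markers, so it fixed part of this difference. It also set the CD3 genes to 0 in NK cells and cannot separate them from type 1 innate lymphoid cells. In the same library order there were 119, 78, 24 and 36 CD4 T cells, 68, 53, 16 and 35 regulatory T cells, and 259, 329, 256 and 277 T or NK cluster cells that met no gate. Median depth was 7660, 5821, 6817.5 and 5266 UMIs per CD8 T cell, and 8220, 6139, 7053 and 10207 UMIs per NK cell.

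Several library facts bear on every comparison. The title of LFD_shYap gives a low-fat diet and its treatment field a high-fat diet, and the title was used. HFD_shYap mixed 2012 kept cells with Xist but no Y-linked UMI and 2974 with Y-linked UMIs but no Xist, whereas each other library had at most 1 kept cell of the Xist kind. Yap1, the knocked-down gene, averaged 21.9 CPM in the Ptprc-low clusters of HFD_shYap against 16.7 CPM in those of HFD_WT, a ratio of 1.32 (95% interval 1.06 to 1.63). In LFD_shYap it stood at 17.9 CPM against 20.1 CPM in LFD_WT, a ratio of 0.888 (0.764 to 1.03). These were 2 clusters with 138, 729, 806 and 829 cells in HFD_shYap, HFD_WT, LFD_shYap and LFD_WT, of which one, of 48 cells, was led by hemoglobin genes, so they need not all be tumour cells. Over all kept cells the Yap1 ratio was 0.602 (0.493 to 0.732) for HFD_shYap/HFD_WT and 0.798 (0.691 to 0.920) for LFD_shYap/LFD_WT, from 1.69, 2.80, 3.41 and 4.28 CPM, values that also move with the number of Ptprc-low cells. The tumour line comparisons below are between libraries labelled shYap and libraries labelled WT. Pairs of libraries shared at most 0.459% of their barcodes.

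Perforin was read first, because granzymes need it to enter a cell. In CD8 T cells Prf1 stood at 151 CPM in HFD_shYap, 128 CPM in HFD_WT, 112 CPM in LFD_shYap and 83.3 CPM in LFD_WT. The share of CD8 T cells with a Prf1 UMI was 44.0%, 37.7%, 36.5% and 23.8% in that order, and 20.6%, 16.5%, 15.5% and 8.36% after every cell was thinned to 2000 UMIs. Both HFD libraries thus lay above both LFD libraries, with HFD_shYap/LFD_shYap at 1.35 (1.19 to 1.53) and HFD_WT/LFD_WT at 1.54 (1.31 to 1.82). These intervals, like all others here, cover counting error only. Over the 4 libraries the diet difference did not pass the adjusted p of 0.05 used throughout (log2 fold change 0.48, SE 0.18, edgeR's quasi-likelihood test with Benjamini-Hochberg adjusted p = 0.298). The p-values here reflect differences among these 4 libraries and not among mice. In a class sum, fewer expressing cells and less RNA per cell cannot be told apart.

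Granzyme B was the member with the evenest level across CD8 T libraries. Its sums were 390 CPM in HFD_shYap, 337 CPM in HFD_WT, 305 CPM in LFD_shYap and 292 CPM in LFD_WT, and it was detected in 51.0%, 52.3%, 52.1% and 41.5% of CD8 T cells. The HFD libraries were the higher pair by a small margin, with 1.28 (1.19 to 1.38) for HFD_shYap/LFD_shYap and 1.16 (1.06 to 1.27) for HFD_WT/LFD_WT. Neither diet (log2 fold change 0.23, SE 0.16, edgeR's quasi-likelihood adjusted p = 0.809) nor tumour line (0.11, adjusted p = 0.983) passed.

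In CPM, granzyme A took the opposite order to perforin by diet, though not by tumour line, and gave the clearest diet difference among the CD8 T members. Gzma was at 112 CPM in HFD_shYap and 77.7 CPM in HFD_WT, against 307 CPM in LFD_shYap and 208 CPM in LFD_WT. The HFD and LFD libraries did not overlap, and the 95% intervals of the 4 sums were also apart, from 102.7 to 122.0 and 70.2 to 85.9 in the HFD libraries to 288.8 to 325.4 and 189.9 to 227.8 in the LFD libraries. Detection kept the HFD libraries below the LFD libraries, with 6.20% and 8.51% of CD8 T cells in HFD_shYap and HFD_WT against 18.5% and 18.03% in LFD_shYap and LFD_WT. Thinned to 2000 UMIs these shares were 3.57% and 5.11% against 12.6% and 12.1%. The ratio was 0.365 (0.329 to 0.406) for HFD_shYap/LFD_shYap and 0.373 (0.326 to 0.428) for HFD_WT/LFD_WT. Gzma fell with the high-fat diet (log2 fold change -1.49, SE 0.17, edgeR's quasi-likelihood test, Benjamini-Hochberg adjusted p = 2.04e-14). DESeq2 called it too (log2 fold change -1.49, SE 0.21, Benjamini-Hochberg adjusted p = 1.12e-08). The call was lost when HFD_shYap was read from its Xist-bearing cells alone (-0.79, edgeR's quasi-likelihood adjusted p = 0.0509), the single alternative of 16 in which Gzma did not pass. In phagocytes, which should lack the gene, Gzma was found in 0.442%, 0.958%, 1.36% and 5.02% of cells of HFD_shYap, HFD_WT, LFD_shYap and LFD_WT, below the CD8 T share of each library.

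Granzyme K, often made by effector memory CD8 T cells, had smaller spreads. Gzmk was at 38.5 CPM in HFD_shYap, 48.5 CPM in HFD_WT, 58.8 CPM in LFD_shYap and 56.1 CPM in LFD_WT, in 19.6%, 21.2%, 29.2% and 21.9% of CD8 T cells. No CD8 T cell of any library held more than 8 Gzmk UMIs, whereas single cells held up to 189 Gzma, 142 Gzmb and 204 Gzmf UMIs. Both HFD sums lay below both LFD sums, but the diet difference did not pass (log2 fold change -0.46, SE 0.20, edgeR's quasi-likelihood adjusted p = 0.446).

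The granzymes of the cluster beyond Gzmb were carried by few CD8 T cells. Gzmf, the most abundant of them by UMIs, was at 130.2 CPM in HFD_shYap and 106 CPM in HFD_WT, against 69.1 CPM in LFD_shYap and 17.1 CPM in LFD_WT. It was detected in 47, 45, 38 and 16 CD8 T cells of these libraries, and 1 cell of each held 166, 204, 60 and 12 of the 616, 527, 247 and 39 UMIs. The HFD sums lay above the LFD sums, and the gap was much wider between HFD_WT and LFD_WT (6.22, 4.49 to 8.85) than between HFD_shYap and LFD_shYap (1.88, 1.62 to 2.19). In LFD_WT the 4.37% of CD8 T cells with Gzmf stood beside 4.71% of neutrophils and 3.59% of phagocytes. Cells with at least 2 Gzmf UMIs made up 1.37%, 0.235% and 0.338% of these classes. How much of the 17.1 CPM was background and how much expression was not tested. Leaving out the top cell of each library gave 95.6, 65.5, 52.5 and 11.9 CPM in the same library order (an alternative chosen after the data were seen).

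Gzmc was at 13.3 CPM in HFD_shYap and 32.5 CPM in HFD_WT, against 6.16 CPM in LFD_shYap and 10.96 CPM in LFD_WT. A single HFD_WT cell held 123 of that library's 161 Gzmc UMIs, and without the top cell of each library the 4 sums were 7.65, 7.71, 5.05 and 7.49 CPM (added after the data were seen). The same HFD_WT cell held 60 of 83 Gzmd, 38 of 52 Gzme and 204 of 527 Gzmf UMIs, or 51.6% of all Gzmc to Gzmf UMIs of its class. Gzmd was at 5.29 and 16.8 CPM in HFD_shYap and HFD_WT against 12.9 and 4.82 CPM in LFD_shYap and LFD_WT. Gzme was at 8.25 and 10.5 CPM in HFD_shYap and HFD_WT against 16.5 and 7.01 CPM in LFD_shYap and LFD_WT. For these 2 genes the diets overlapped, and between 4 and 14 cells carried them in each library.

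**Figure D1:**
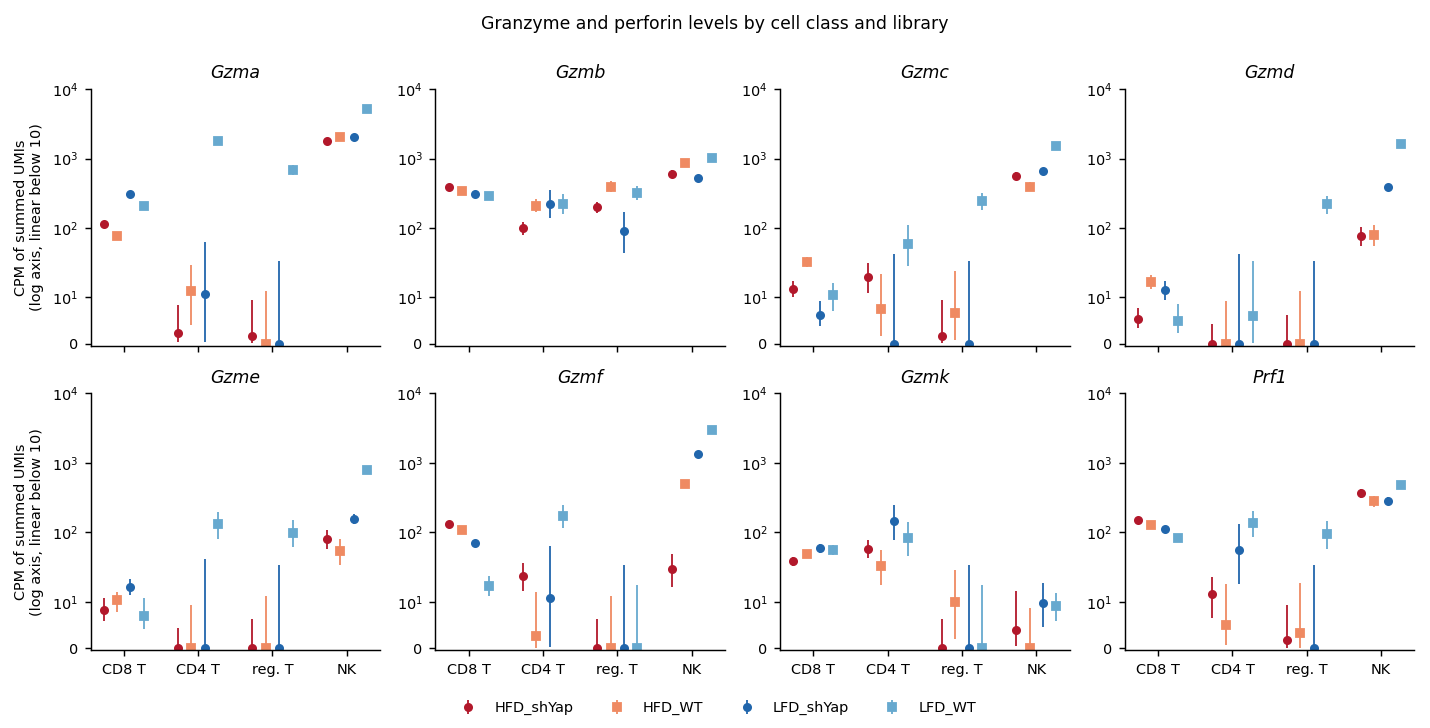
Level of each of the 8 genes in CD8 T, CD4 T, regulatory T and NK cells of each library, in CPM of the summed cells on a log axis that is linear below 10, with exact 95% Poisson intervals as bars. Gzma in CD8 T cells sits at 112 and 77.7 in the HFD libraries against 307 and 208 in the LFD libraries, and Gzmd and Gzmf in NK cells are highest in LFD_WT.

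In the fit over all genes of the CD8 T sums, 107 of 10180 genes (1.05%) passed for diet, and all 8 members were tested. Of the members 3 passed, with Gzmf and Gzmc among the 0.629% of genes that were higher and Gzma among the 0.422% that were lower in HFD. Gzmf had a log2 fold change of 1.55 (SE 0.20, edgeR's quasi-likelihood adjusted p = 1.9e-11) and Gzmc one of 1.31 (SE 0.28, adjusted p = 0.000783). DESeq2 gave Gzmf 1.71 with an SE of 0.80 and Gzmc 1.30 with an SE of 0.52, and called neither. When 1 library was left out, the fit on the other 3 held a single factor, so that tumour line then entered the diet contrast. In such fits the Gzmf call was lost without LFD_WT (0.73), without HFD_WT (1.47) or without HFD_shYap (1.21), and the Gzmc call without HFD_WT (0.63) or without LFD_shYap (1.02). The Gzmc call was also lost when doublets were kept (0.62). Without the CD8 T cells that held more than 5 phagocyte-marker UMIs, the Gzmf value was -0.14, with 211, 118, 65 and 8 cells left in HFD_shYap, HFD_WT, LFD_shYap and LFD_WT (added after the data were seen). The median log2 fold change of the 8 members was 0.15 and that of all genes -0.0037. The summed phagocyte list, with 8 of 8 genes detected in CD8 T cells, was 1067, 2169, 1726 and 2906 CPM in HFD_shYap, HFD_WT, LFD_shYap and LFD_WT, and in which way it bears on these genes was not tested further.

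For tumour line, 134 genes (1.32%) passed in the same fit, and among them 2 members. Gzmf was higher in the libraries labelled shYap, 130.2 and 69.1 CPM (HFD, LFD), against 106 and 17.1 CPM in the libraries labelled WT (log2 fold change 0.91, SE 0.20, edgeR's quasi-likelihood adjusted p = 0.000887, where 0.167% of genes were higher). Gzmc was lower, 13.3 and 6.16 CPM in the libraries labelled shYap against 32.5 and 10.96 CPM in those labelled WT (log2 fold change -1.17, SE 0.27, edgeR's quasi-likelihood adjusted p = 0.00256, where 1.15% of genes were lower). The alternatives, DESeq2 among them, called Gzmf in 6 of 16 and Gzmc in 9 of 15. Library by library, Gzmf stood at 1.22 (1.09 to 1.38) for HFD_shYap/HFD_WT and 4.04 (2.88 to 5.82) for LFD_shYap/LFD_WT. In LFD_WT the share of CD8 T cells with Gzmf was close to that of neutrophils, and the part of background was not tested. Without the top cell of each library, the Gzmc sums of HFD_shYap and HFD_WT were 7.65 and 7.71 CPM. DESeq2 called neither. Prf1 (0.30, edgeR's quasi-likelihood adjusted p = 0.81) and Gzma (0.52, SE 0.17, adjusted p = 0.12) did not pass, although both were higher in CPM in the library labelled shYap at each diet. Of the 530 Gzma UMIs of HFD_shYap, 1 cell held 189. Without the top cell of each library Gzma was at 72.3 (64.9 to 80.4) and 66.1 CPM (59.15 to 73.7) in HFD_shYap and HFD_WT. In LFD_shYap and LFD_WT it was then at 262 and 176 CPM (added after the data were seen). The HFD intervals overlapped, and fewer cells had Gzma in HFD_shYap (6.20%) than in HFD_WT (8.51%).

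NK cells of each library had a higher level than its CD8 T cells for Gzma, Gzmb, Gzmc, Gzmd, Gzme and Prf1. For Gzmf this held except in HFD_shYap, and Gzmk was higher in CD8 T cells. In HFD_WT the Gzmf order rested on 1 NK cell with 202 of 213 UMIs. Without the top cell of each class, Gzmf there was at 26.8 CPM in NK and 65.5 CPM in CD8 T cells (added after the data were seen). Gzma was at 1768 CPM in HFD_shYap, 2028 CPM in HFD_WT, 2045 CPM in LFD_shYap and 5244 CPM in LFD_WT, and was found in 69.0%, 69.8%, 52.2% and 81.4% of NK cells. LFD_WT stood apart and the other 3 libraries lay close together. The HFD_WT/LFD_WT ratio was 0.387 (0.361 to 0.414), and that of HFD_shYap/LFD_shYap was 0.864. Over the 4 libraries the diet difference did not pass (log2 fold change -0.87, SE 0.35, edgeR's quasi-likelihood adjusted p = 0.316).

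Gzmb and Prf1 varied less between the NK libraries. Gzmb was at 605 CPM in HFD_shYap, 865 CPM in HFD_WT, 517 CPM in LFD_shYap and 1015 CPM in LFD_WT. Prf1 was at 363 CPM in HFD_shYap, 280.3 CPM in HFD_WT, 284 CPM in LFD_shYap and 486 CPM in LFD_WT. The diets overlapped for both, and neither passed for diet (log2 fold changes -0.08 and -0.30, edgeR's quasi-likelihood adjusted p = 0.827 for Prf1) or for tumour line. Gzmk was close to absent, with 2, 0, 9 and 26 UMIs in the NK cells of HFD_shYap, HFD_WT, LFD_shYap and LFD_WT, and was too low to be tested.

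Gzmc, Gzmd, Gzme and Gzmf in NK cells set LFD_WT apart. Gzmc was at 562 CPM in HFD_shYap and 393 CPM in HFD_WT, against 666 CPM in LFD_shYap and 1502 CPM in LFD_WT. Gzmd was at 76.1 and 80.1 CPM in HFD_shYap and HFD_WT, against 385 CPM in LFD_shYap and 1633 CPM in LFD_WT. Gzme was at 80.0 and 54.2 CPM in HFD_shYap and HFD_WT, against 157 CPM in LFD_shYap and 788 CPM in LFD_WT. Each of these 3 was lower in both HFD libraries than in both LFD libraries, with the widest gap between the WT pair. Without the top cell of each library, Gzmc was at 330.0, 183, 558 and 1400 CPM, Gzmd at 33.9, 36.1, 283 and 1522 CPM and Gzme at 39.9, 26.4, 97.1 and 718 CPM in HFD_shYap, HFD_WT, LFD_shYap and LFD_WT (added after the data were seen). The order of the diets was the same without those cells.

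Gzmf spread most, at 29.3 CPM in HFD_shYap and 502 CPM in HFD_WT, against 1333 CPM in LFD_shYap and 2963 CPM in LFD_WT. Its UMIs in the first 3 libraries came from very few cells, 2 in HFD_shYap, 4 in HFD_WT and 12 in LFD_shYap, against 85 of 247 in LFD_WT. A single HFD_WT cell held 202 of that library's 213 UMIs, and without the top cell of each library Gzmf was at 5.93, 26.8, 905 and 2823 CPM in HFD_shYap, HFD_WT, LFD_shYap and LFD_WT (added after the data were seen). The 4 genes together had 747, 1029, 2541 and 6886 CPM in that order, in 25.9%, 30.2%, 31.0% and 66.0% of NK cells, and in 17.2%, 22.6%, 21.6% and 56.0% after thinning. By any of the 4 genes, the share of cells thus stood out in LFD_WT alone. In LFD_shYap Gzmd was in 19.47% of NK cells, against 5.172% and 7.937% in HFD_shYap and HFD_WT. Gzme was in 15.04% against 6.897% and 6.349%, and Gzmc in 21.24% against 22.41% and 26.98%. The intervals of LFD_shYap overlapped those of the HFD libraries for these 3 genes. A single LFD_shYap cell held 613 of its 2329 UMIs of the 4 genes.

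**Figure D2:**
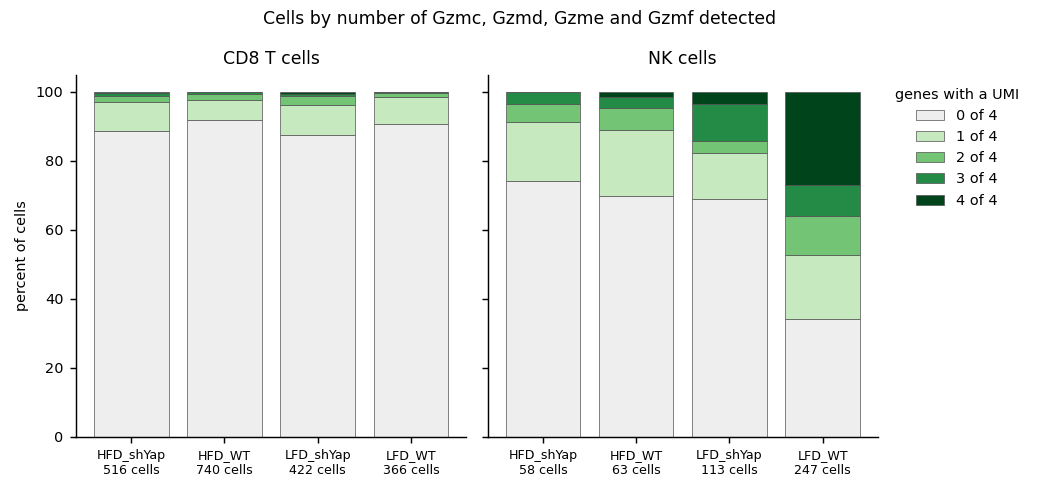
Share of CD8 T and NK cells of each library, in percent of cells, in which 0 to 4 of the genes Gzmc, Gzmd, Gzme and Gzmf were detected, as stacked bars. NK cells of LFD_WT stand apart, with 27.1% holding all 4 genes, against 0 of 58 NK cells in HFD_shYap, 1 of 63 in HFD_WT and 4 of 113 in LFD_shYap.

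For NK diet, 49 of 6219 genes passed (0.788%, with 0.193% lower), and 4 of the 7 members tested were among the lower ones. Gzmd fell by 3.44 on the log2 scale with the high-fat diet (SE 0.33, edgeR's quasi-likelihood adjusted p = 3.88e-22) and Gzmf by 3.76 (SE 0.36, adjusted p = 3.88e-22). Gzme fell by 2.48 (SE 0.31, edgeR's quasi-likelihood adjusted p = 2.56e-12) and Gzmc by 1.16 (SE 0.30, adjusted p = 0.0166). Of these, DESeq2 called Gzmd alone (log2 fold change -3.42, SE 0.84, Benjamini-Hochberg adjusted p = 0.0396). The edgeR calls of Gzmd and Gzmf held without any 1 of the 4 libraries, in fits that hold diet alone, with values from -4.42 to -2.43 for Gzmd and from -6.32 to -2.14 for Gzmf. Without cells over 5 phagocyte UMIs, which left 30, 8, 23 and 11 NK cells in HFD_shYap, HFD_WT, LFD_shYap and LFD_WT, Gzmd was at -4.64 and Gzmf at -4.93, and neither was called (added after the data were seen). The alternatives called Gzme in 14 of 16 and Gzmc in 7 of 17. For Gzmf DESeq2 gave -4.09 with an SE of 1.25 (Benjamini-Hochberg adjusted p = 0.688). All 7 members had a fold change below 0, with a median of -1.16 against 0.0035 over all genes. For tumour line 37 genes passed (0.595%, with 0.482% lower), and 3 members were lower in the libraries labelled shYap. These were Gzmf (log2 fold change -2.22, SE 0.35, edgeR's quasi-likelihood adjusted p = 4.52e-07), Gzmd (-1.32, SE 0.32, adjusted p = 0.00939) and Gzme (-1.25, SE 0.31, adjusted p = 0.0127). Library by library, LFD_shYap/LFD_WT was 0.450 (0.423 to 0.478) for Gzmf, 0.236 (0.211 to 0.263) for Gzmd and 0.199 (0.167 to 0.236) for Gzme. HFD_shYap/HFD_WT was 0.0583 (0.0321 to 0.0984) for Gzmf, where 1 HFD_WT cell held 202 of 213 UMIs, 0.9501 (0.584 to 1.55) for Gzmd and 1.48 (0.866 to 2.58) for Gzme. For Gzmd and Gzme a tumour line difference was thus seen in the LFD pair and was not detectable in the HFD pair.

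Dividing cells were also most common there: 29.3%, 23.8%, 23.9% and 50.2% of NK cells in HFD_shYap, HFD_WT, LFD_shYap and LFD_WT had a Mki67 or Top2a UMI. In LFD_WT the 124 NK cells with such a UMI had 7560 CPM of Gzmc to Gzmf and the 123 without had 5470 CPM. Within LFD_WT the level was thus high in both, and higher in the cells with such a UMI. These values are of LFD_WT alone and do not show how the level went with division in the other libraries. The 181 LFD_WT NK cells outside the sub-cluster led by granzymes and cell-cycle genes had 5882 CPM of these genes and 2905 CPM of Gzmf.

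**Figure D3:**
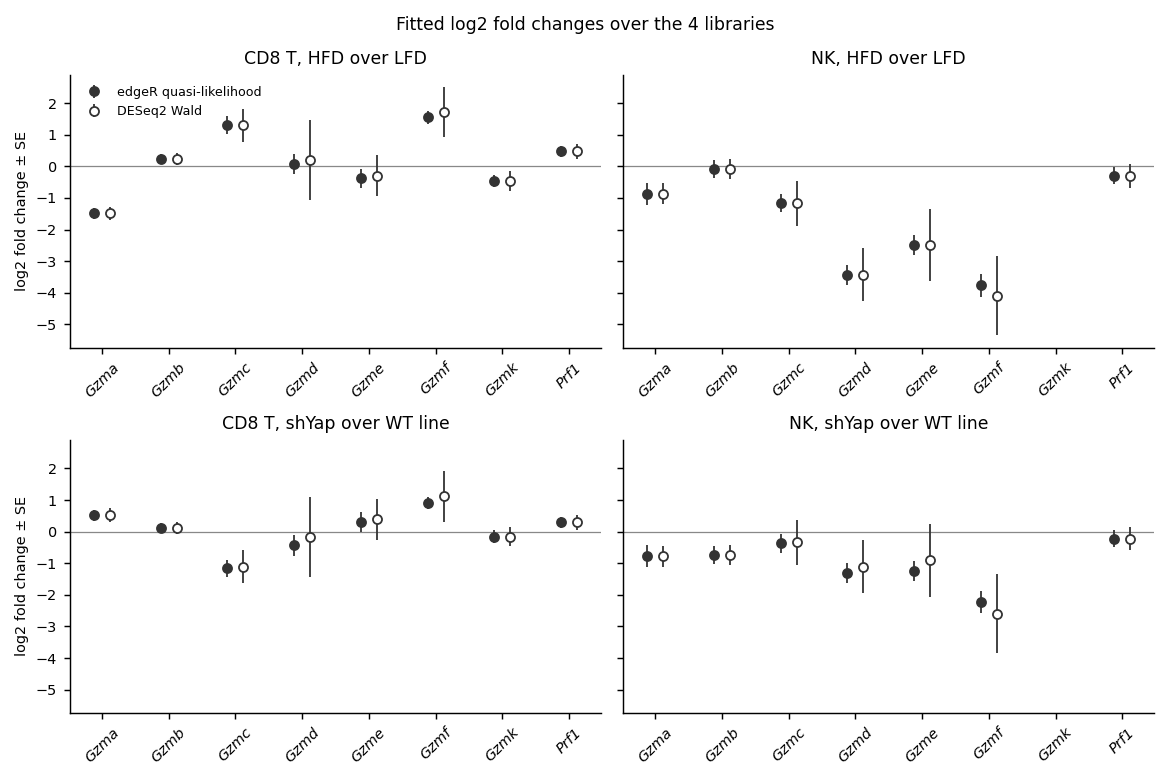
Log2 fold change with its SE for each member tested, by diet (HFD over LFD) and by tumour line (shYap over WT), in CD8 T and in NK cells, with edgeR's quasi-likelihood fit as filled points and DESeq2 as open points. Gzmf lies at 1.55 for diet in CD8 T cells and at -3.76 in NK cells, and the SEs of DESeq2 are wider for Gzmc to Gzmf.

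The diet differences of CD8 T and NK cells were also compared directly, in one fit over both classes with the library as a block (added after the data were seen). That fit also left 1 residual degree of freedom, and DESeq2 was not run on it. For diet 33 of 10048 genes (0.328%) differed, among them 4 members, each with the higher value in CD8 T cells. The difference, CD8 T minus NK, was 5.77 for Gzmf (SE 0.33, edgeR's quasi-likelihood adjusted p = 2.48e-62), 3.55 for Gzmd (SE 0.39, adjusted p = 3.38e-16), 2.55 for Gzmc (SE 0.35, adjusted p = 1.03e-09) and 2.05 for Gzme (SE 0.39, adjusted p = 0.000122). For tumour line, 17 genes (0.169%) differed, among them Gzmf at 3.65 (SE 0.33, edgeR's quasi-likelihood adjusted p = 4.94e-24) and Gzma at 1.30 (SE 0.28, adjusted p = 0.00467). The class that supplied the UMIs differed between libraries as well. CD8 T cells gave 93.1% and 68.1% of all Gzmf UMIs in HFD_shYap and HFD_WT, against 11.1% and 0.283% in LFD_shYap and LFD_WT. NK cells gave 2.27% and 27.5% in HFD_shYap and HFD_WT, against 55.1% and 62.2% in LFD_shYap and LFD_WT. For Prf1, CD8 T cells gave 71.3% and 73.3% of the UMIs in HFD_shYap and HFD_WT, against 51.2% and 8.82% in LFD_shYap and LFD_WT. Gzmk kept its source, with 60.3%, 72.3%, 72.7% and 62.4% from CD8 T cells. These shares also move with the number of cells, and NK cells were 0.797%, 0.580%, 1.25% and 2.23% of kept cells in HFD_shYap, HFD_WT, LFD_shYap and LFD_WT.

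CD4 T cells had less Gzmb than the CD8 T cells of each library. Gzmb was at 99.2, 210.2, 225 and 224 CPM in CD4 T cells of HFD_shYap, HFD_WT, LFD_shYap and LFD_WT, from 85, 84, 20 and 38 UMIs. Of these UMIs 1 cell of each library held 27, 45, 7 and 31. Without that cell Gzmb was at 68.4, 101.7, 151.8 and 51.4 CPM (added after the data were seen). Gzmk was at 58.4, 32.5, 146 and 82.7 CPM in the same order, so the HFD libraries were the lower pair, and in HFD_shYap, LFD_shYap and LFD_WT the level was above that of CD8 T cells. Prf1 was at 12.8 and 5.01 CPM in HFD_shYap and HFD_WT against 56.2 and 136 CPM in LFD_shYap and LFD_WT, from only 2 to 23 UMIs a library. In LFD_WT 1 cell held 20 of the 23. Without the top cell of each library Prf1 was at 2.41 and 0 CPM against 34.7 and 22.0 CPM. Gzma in LFD_WT rested on a single cell with 282 of 306 UMIs, against 2, 5 and 1 UMIs in HFD_shYap, HFD_WT and LFD_shYap. In LFD_WT, Gzmc, Gzme and Gzmf were at 59.05, 129.9 and 171.3 CPM, from 10, 22 and 29 UMIs of which 1 cell held 7, 22 and 27. These cells were too few for the fit across all genes, and the values carry no test.

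Regulatory T cells, which restrain other lymphocytes, held Gzmb in many cells. Gzmb was detected in 47.1% of regulatory T cells of HFD_shYap and 56.6% of HFD_WT, against 12.5% of LFD_shYap and 14.3% of LFD_WT, that is in 32, 30, 2 and 5 cells. The diets did not overlap in share. After thinning the shares were 23.8% and 38.0% in HFD_shYap and HFD_WT against 13.3% and 13.3% in LFD_shYap and LFD_WT. The order was the same but the gap was smaller, and the intervals of the HFD and LFD library overlapped for each tumour line. In CPM, where the diets did overlap, the values were 198 and 394 in HFD_shYap and HFD_WT against 91.5 and 322 in LFD_shYap and LFD_WT. A single LFD_WT cell held 55 of 69 Gzmb UMIs, and 1 LFD_shYap cell held 7 of 10. Without the top cell of each library Gzmb was at 160.7 and 331.8 CPM in HFD_shYap and HFD_WT. In LFD_shYap and LFD_WT it was then at 28.0 and 73.8 CPM, so that the diets did not overlap (added after the data were seen). All 146 Gzma, 52 Gzmc, 47 Gzmd, 21 Gzme and 20 Prf1 UMIs of the LFD_WT regulatory T cells also came from 1 cell per gene. Median depth was 6392 and 4644 UMIs in HFD_shYap and HFD_WT against 3712 and 3470 in LFD_shYap and LFD_WT. None of the 172 regulatory T cells had a Gzmf UMI, which allows a share of cells with a UMI of up to 1.74% (3 counts) and says less of expression at these depths. In order of level over the classes, Gzmb was highest in NK cells of each library. CD8 T cells lay above CD4 T cells without overlap, and regulatory T cells overlapped both.

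Single CD8 T cells showed which members travelled together. After thinning to 2000 UMIs, Gzmb was found in 65.6%, 67.9%, 38.5% and 53.9% of the cells with any of Gzmc to Gzmf in HFD_shYap, HFD_WT, LFD_shYap and LFD_WT, against 28.8%, 34.0%, 30.7% and 24.6% of the other CD8 T cells. Prf1 was found in 43.8%, 46.4%, 30.8% and 15.4% of the same cells, against 19.1%, 15.2%, 14.4% and 8.08% of the rest. Both were more frequent in the Gzmc to Gzmf cells of every library, and the 95% intervals of the compared shares were apart in HFD_shYap and HFD_WT and overlapped in LFD_shYap and LFD_WT. The LFD_WT cells numbered 13, in a library where phagocytes and neutrophils held UMIs of these genes too. Gzma did not follow them, since it was seen in 0 of 32, 0 of 28, 4 of 26 and 2 of 13 of these cells, against 3.81%, 5.32%, 12.4% and 11.98% of the rest. A count of 0 among so few cells does not show absence.

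In the Gzma cells Gzmb was found at 55.6%, 55.6%, 44.2% and 42.9% in HFD_shYap, HFD_WT, LFD_shYap and LFD_WT, against 30.3%, 34.2%, 29.3% and 23.3% of cells without Gzma. Gzmk was in 16.7%, 27.8%, 11.5% and 21.4% of Gzma cells, against 4.94%, 9.12%, 8.01% and 9.18% of the rest. Gzmb and Prf1 went together more loosely: Prf1 was in 26.8%, 22.5%, 17.8% and 11.2% of Gzmb cells, against 17.9%, 13.2%, 14.4% and 7.36% of cells without Gzmb. For these last 3 pairs the intervals were apart in HFD_WT alone. Cells with no member at all made up 28.3%, 27.3%, 23.9% and 33.6% of unthinned CD8 T cells.

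**Figure D4:**
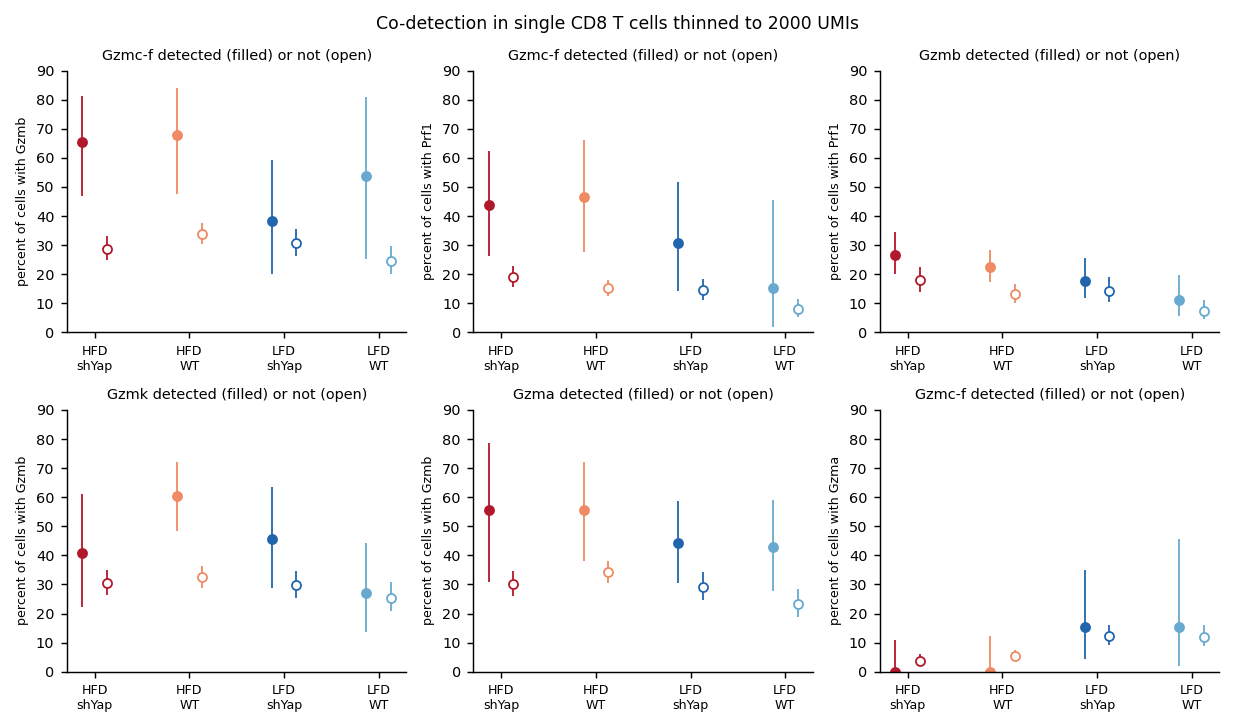
Share of CD8 T cells with a second gene detected, in percent of cells after thinning to 2000 UMIs, among cells with the first gene (filled) and without it (open), by library, with exact 95% Clopper-Pearson intervals. Gzmb and Prf1 are more frequent in cells with Gzmc to Gzmf in each library, whereas Gzma was seen in 0 of 32 and 0 of 28 such cells in HFD_shYap and HFD_WT.

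In NK cells the same genes were found together. Gzmb was in 80.0%, 78.6%, 70.8% and 70.6% of NK cells with any of Gzmc to Gzmf in HFD_shYap, HFD_WT, LFD_shYap and LFD_WT, against 41.7%, 50%, 47.1% and 43.0% of the other NK cells, with intervals that were apart in LFD_WT. Within the cluster the neighbours were shared in LFD_WT, where Gzmd was in 82.9% of 76 Gzmf cells against 15.6% of NK cells without Gzmf. In that library Gzme was in 73.0% of the 89 Gzmd cells against 8.44% of cells without Gzmd. Only 1 to 8 thinned NK cells per library held Gzmf elsewhere, too few for the same reading. Gzmg, the next gene of the cluster, was at 202 CPM in 41 NK cells of LFD_WT, with 0, 1 and 13 UMIs in HFD_shYap, HFD_WT and LFD_shYap. Gzmn had 1 UMI over all NK cells, and Gzmm, on chromosome 10, had 2, 8, 5 and 12 UMIs in NK cells of HFD_shYap, HFD_WT, LFD_shYap and LFD_WT.

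The CD8 T sub-clusters, built without the members, differed in them. Cd8a, Cd8b1, Ccl5, Pdcd1 and Lag3 were among the leading genes of 2 of them. The one that also had Tox, Nr4a2 and Xist among its leading genes held Gzmf at 136 CPM in HFD_shYap and 334 CPM in HFD_WT, against 139 CPM in LFD_shYap and 62.0 CPM in LFD_WT, and it supplied 314, 141, 127 and 31 gated CD8 T cells. In the sub-cluster led by the interferon-induced genes Ifit3, Ifit1 and Isg15, Gzmb was at 614, 724, 730.4 and 720 CPM in the same library order, while Gzmf was at 0, 0, 6.70 and 10.9 CPM. Gzmk was at 173, 134, 134 and 60.0 CPM in these cells, above the class level in the first 3 libraries and close to it in LFD_WT. In the one that had Nkg7, Gldc and Cxcr6 among its leading genes, Gzma was at 46.8 and 34.9 CPM in HFD_shYap and HFD_WT against 318 and 181 CPM in LFD_shYap and LFD_WT, so the Gzma order of the whole class was also found within it. Within the sub-cluster with Tox, Nr4a2 and Xist it was not, with 102 and 60.2 CPM in HFD_shYap and HFD_WT against 463 CPM in LFD_shYap and 31.0 CPM in LFD_WT, the last from 7 UMIs in 33 cells.

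The HFD_shYap library was then split by sex-linked transcripts. Its 185 CD8 T cells with Xist had 286 CPM of Gzma (260.4 to 313.0), against 24.5 CPM (17.96 to 32.5) in the 184 with Y-linked UMIs. For Gzmf the values were 298 CPM (271.6 to 325.2) in the Xist cells and 46.3 CPM (37.2 to 57.0) in the Y-linked cells. Of these UMIs of the Xist cells, 1 cell held 189 of 465 for Gzma and 166 of 484 for Gzmf. Without the top cell of each kind, Gzma was at 171.3 CPM (151.7 to 192.7) in the Xist cells against 13.1 CPM (8.47 to 19.3) in the Y-linked cells, and Gzmf at 198 CPM (177.1 to 221.3) against 38.65 CPM (30.4 to 48.5), so the order was the same (added after the data were seen). Prf1, at 154 and 159 CPM, was even between them, and Gzmb was at 509 and 363 CPM. Within this 1 library the Gzma levels lay further apart than those of any pair of whole CD8 T libraries. The Gzma level of the Xist cells, 286 CPM, stood close to the 307 CPM of LFD_shYap. With the Y-linked cells alone (added after the data were seen) HFD_shYap/LFD_shYap for Gzmf in CD8 T cells was 0.670, below 1.

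**Figure D5:**
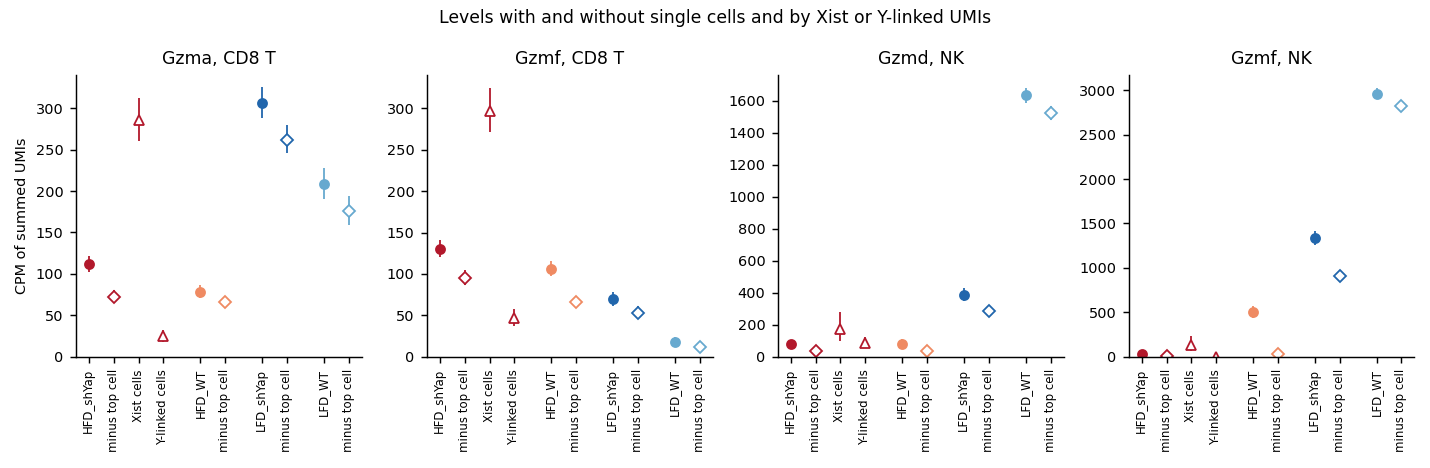
Levels of Gzma and Gzmf in CD8 T cells and of Gzmd and Gzmf in NK cells by library, in CPM of the summed cells, for all cells (filled circles), without the cell holding most UMIs of the gene (open diamonds) and, in HFD_shYap, for cells with Xist or with Y-linked UMIs (open triangles), with exact 95% Poisson intervals as bars. The HFD_shYap triangles for Gzma in CD8 T cells lie at 286 and 24.5, on both sides of the value of 112 for all cells.

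Cells that should lack these genes held some of them in LFD_WT. Any of Gzmc to Gzmf was found in 6.90% of its phagocytes and 7.06% of its neutrophils, against 9.29% of its CD8 T cells, with median depths of 7693.5, 1669 and 5266 UMIs. In HFD_shYap, HFD_WT and LFD_shYap the phagocyte share was 0.233%, 0.687% and 1.73%, below the CD8 T shares of 11.4%, 8.11% and 12.6%. The LFD_WT level of 39.9 CPM in CD8 T cells could not be told apart from 39.7 CPM in neutrophils. In phagocytes it was 29.9 CPM, where 1 cell held 1131 of 1587 UMIs, and 8.59 CPM without that cell (added after the data were seen). The NK level of 6886 CPM in LFD_WT was far above all of these.

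Genes of the wider cytotoxic machinery were read in 5 lists. They held 17 genes of granule maturation and release, 4 granzyme inhibitors, 13 regulators, 6 other effector molecules and 6 genes of the IL-2 and IL-15 receptor signal. For diet in CD8 T cells, where 1.05% of all genes passed, a single one of these genes did, Serpinb9b, a serpin related to the granzyme B inhibitor Serpinb9. Serpinb9b was at 8.88 and 11.9 CPM in HFD_shYap and HFD_WT against 4.48 and 2.63 CPM in LFD_shYap and LFD_WT (log2 fold change 1.41, SE 0.39, edgeR's quasi-likelihood adjusted p = 0.0309). Serpinb9 itself was at 393, 320, 344 and 262 CPM in HFD_shYap, HFD_WT, LFD_shYap and LFD_WT and did not pass. Srgn, whose proteoglycan packs granzymes in the granule, was at 951, 995, 876 and 832 CPM in CD8 T cells of the 4 libraries in that order and did not pass either. The list medians for CD8 T diet ran from 0.05 to 0.24 against -0.0037 over all genes.

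For tumour line in CD8 T cells, where 1.32% of all genes passed, 2 genes of the lists did, both of granule maturation and release. Ctsh, a lysosomal cysteine protease, was lower, at 25.4 and 40.6 CPM in the libraries labelled shYap (HFD, LFD) against 51.5 and 51.7 CPM in those labelled WT (log2 fold change -0.72, SE 0.21, edgeR's quasi-likelihood adjusted p = 0.0445). Sytl3, a synaptotagmin-like protein of the family that binds Rab27, was higher, at 75.7 and 84.2 CPM against 48.3 and 48.2 CPM (log2 fold change 0.70, SE 0.20, edgeR's quasi-likelihood adjusted p = 0.0332). The summed phagocyte list of the same CD8 T cells was also lower in HFD_shYap and LFD_shYap, at 1067 and 1726 CPM. In HFD_WT and LFD_WT it was at 2169 and 2906 CPM, and its bearing on Ctsh was not tested. In NK cells, for diet, where 0.788% of all genes passed, Zeb2, a repressor that drives terminal maturation, was the single one to pass. Zeb2 was at 60.5 and 82.5 CPM in HFD_shYap and HFD_WT against 26.2 and 24.9 CPM in LFD_shYap and LFD_WT (log2 fold change 1.43, SE 0.36, edgeR's quasi-likelihood adjusted p = 0.0157). It was also among the leading genes of a phagocyte cluster. The summed phagocyte list of NK cells was at 1067, 3319, 1413 and 1708 CPM in HFD_shYap, HFD_WT, LFD_shYap and LFD_WT, and its bearing on Zeb2 was not tested. None passed for tumour line in NK cells (0.595% of all genes), where 4, 1, 1, 2 and 0 genes of these lists, in the order above, had an unadjusted p under 0.05 in edgeR.

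Across the 16 sums of 4 classes in 4 libraries, the genes most like the members in log2(CPM + 1) included NK cell receptors. By Pearson's r, Gzma was closest to Gzme (0.95) and Klrb1c (0.94), Gzmd to Gzme (0.94), Gzmc to Klra7 (0.92), and Prf1 to Fcrl6 (0.93). Gzmb was closest to Ppp1r3b (0.91), Gzmk to Fam234b (0.89) and Gzmf to Qrfp (0.89). These values describe 16 points that share libraries and a large NK to T cell contrast, and they carry no p. Across thinned CD8 T cells, the highest mean r with the summed Gzmc to Gzmf among 3426 genes was 0.156, for Prf1, which is too weak to read.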

How the data were processed

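Raw, unnormalized UMI counts were deposited for every gene in each barcode. Their headers give Cell Ranger 6.0.0, while STAR 2.5.1, mm10 and an earlier release, Cell Ranger 4.0.0, appear in the submitters' processing notes, and the sources thus differ on the version. Libraries were prepared with 10x 3′ v3.1 chemistry, per the labels' protocols.

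The 4 libraries held 9582 to 14779 barcodes and 106268471 to 144936859 UMIs. Barcodes with at least 200 genes and under 15% mitochondrial UMIs were kept. Doublets were removed by rank of a simulated-doublet score at 0.8% per 1000 barcodes (605, 1356, 942 and 1486 barcodes of HFD_shYap, HFD_WT, LFD_shYap and LFD_WT), since the automatic threshold marked 2, 363, 3 and 1. Cells were clustered with scanpy 1.11.5 on 2000 variable genes without granzymes or Prf1, with 30 components, 15 neighbours and Leiden resolution 1, giving 27 clusters. Marker gates then set the classes.

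UMIs were summed per class and library and scaled to CPM, with exact Poisson intervals, and shares of cells had Clopper-Pearson intervals, all at 95% and all for counting error only. Thinning to 2000 UMIs left out 12, 35, 8 and 19 CD8 T cells and 0, 1, 2 and 4 NK cells, in the library order above. CD8 T sums (2281096 to 4952865 UMIs) and NK sums (424508 to 2895191 UMIs) were tested by quasi-likelihood in edgeR 4.0.16 under R 4.3.3 (TMM, filterByExpr, additive diet and tumour line, Benjamini-Hochberg at 0.05 over all genes), with 1 residual degree of freedom. DESeq2 1.42.0 was the alternative test. On simulated counts for diet, the fit found 58 of 66 genes with a 4-fold change in CD8 T sums (10180 genes) and 58 of 66 in NK sums (6219 genes). At a 2-fold change it found 46 of 67 in CD8 T sums and 19 of 67 in NK sums. Among the unchanged genes it called 9 in CD8 T sums and 6 in NK sums. The counts were drawn with the dispersion of the fit itself, so the simulation does not cover sums in which 1 cell holds most UMIs.

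Named genes were the 8 members, the other granzymes, the listed genes that passed or ranked highest by level in their list, and the nearest genes by correlation. Members and lists were chosen with earlier results of these data known. Promoter windows came from RefSeq (GRCm38.p6), and protein sequences were not used here.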

Additional observations from a re-analysis of the deposited data

Results flagged for a closer look

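Gzmc, Gzmd, Gzme and Gzmf were flagged because their diet difference was not the same in CD8 T and NK cells when the difference itself was tested in one fit (chosen after the data were seen). The log2 fold change of HFD over LFD in CD8 T minus that in NK was 2.55 for Gzmc, 3.55 for Gzmd, 2.05 for Gzme and 5.77 for Gzmf, each past an adjusted p of 0.05 in edgeR's quasi-likelihood test.

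For tumour line, the same fit flagged Gzma, with a difference of 1.30, and Gzmf, with 3.65. With only the Y-linked cells of HFD_shYap, the Gzma difference was 0.36 (edgeR's quasi-likelihood adjusted p = 0.909).

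A strong Gzmf signal also lay outside the gated classes. The 277 ungated T and NK cluster cells of LFD_WT had 3259 CPM of Gzmf, from 30 cells, of which 1 held 1536 of the 4138 UMIs, against 3.73 CPM in ungated cells of HFD_shYap, 1 CPM in those of HFD_WT and 699 CPM in those of LFD_shYap, where 1 cell held 278 of 663 UMIs.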

How the results depend on the processing

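No paired analysis was possible because each combination of diet and tumour line has 1 library and all replicate numbers are 1. The genes called for CD8 T diet, CD8 T tumour line, NK diet and NK tumour line numbered 107, 134, 49 and 37 in edgeR. With DESeq2 they were 18, 22, 7 and 3, with the factor alone in the model 6, 22, 16 and 0 (403 genes at an unadjusted p under 0.05 for NK tumour line in edgeR), and with only Xist cells of HFD_shYap 70, 60, 21 and 11. With the treatment-field diet of LFD_shYap the first 3 were 32, 37 and 109. A fit on 3 libraries holds 1 factor, so the other factor is mixed into its contrast. Leaving out 1 library in turn gave 21 to 95, 24 to 111, 12 to 216 and 10 to 232. CD8 T tumour line calls were 8 without doublet removal and 87 with sub-cluster classes. Added after the data were seen, leaving out cells with more than 5 phagocyte UMIs gave 10, 18, 0 and 0 (109 genes at an unadjusted p under 0.05 for NK diet in edgeR), which leaves 8 CD8 T and 11 NK cells in LFD_WT. Leaving out sub-clusters led by phagocyte, dendritic or neutrophil genes gave 65 for CD8 T tumour line, 16 for NK diet and 5 for NK tumour line, and leaving out the NK sub-cluster led by granzymes and cell-cycle genes gave 84 for NK tumour line.

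Of the called log2 fold changes, those that turned sign were Gzmf for CD8 T diet without cells over 5 phagocyte UMIs (-0.14), Gzmf for CD8 T tumour line with the treatment-field diet (-0.10) and without LFD_WT (-0.11), and Gzmf for NK tumour line without cells over 5 phagocyte UMIs (0.26). For NK tumour line the treatment-field diet gave Gzmd 1.63, Gzme 1.20 and Gzmf 0.55, and leaving out LFD_WT gave 1.63, 1.20 and 0.54. Leaving out each library in turn gave -0.11 to 2.501 for Gzmf in CD8 T tumour line and, for NK tumour line, -3.59 to 1.63 for Gzmd, -2.66 to 1.20 for Gzme and -5.97 to 0.54 for Gzmf. Of 486 such values 374 kept direction and call, 33 that were uncalled in both changed sign, 60 lost the call and 9 gained it.

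Ratios between libraries that crossed 1 were the following. Without doublet removal, Gzmd in CD8 T for LFD_shYap/LFD_WT was 0.542. With only Xist cells, NK Gzma was 1.19 and Prf1 0.495 for HFD_shYap/LFD_shYap, and 1.20 and 0.501 for HFD_shYap/HFD_WT. With only Y-linked cells, CD8 T HFD_shYap/LFD_shYap was 0.670 for Gzmf and 0.601 for Gzmc to Gzmf, CD8 T HFD_shYap/HFD_WT was 0.315 for Gzma and 0.435 for Gzmf, and NK Gzmc HFD_shYap/LFD_shYap was 1.30. Without cells over 5 phagocyte UMIs, CD8 T HFD_WT/LFD_WT was 0.0364 for Gzmf and 0.0819 for Gzmc to Gzmf, CD8 T HFD_shYap/HFD_WT was 4.25 for Gzmc, and in NK HFD_shYap/LFD_shYap was 3.20 for Gzmc, HFD_shYap/HFD_WT 2.46 for Gzma and 2.79 for Gzmc to Gzmf, and LFD_shYap/LFD_WT 1.54 for Gzmb. With equal weight per cell, CD8 T HFD_shYap/HFD_WT was 0.961 for Gzma and 0.923 for Gzmb, NK HFD_WT/LFD_WT was 1.02 for Gzmb and NK HFD_shYap/LFD_shYap 1.15 for Gzmc. The causes were not tested. The 58 and 63 NK cells of the HFD libraries limit what depth can show there.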
